A study of Arabidopsis thaliana with 6 samples.

Results

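Pseudogenes are copies or relics of genes that have lost an intact reading frame. In Arabidopsis many of them derive from mobile elements, they crowd around the centromeres, and DNA methylation and small RNAs usually keep them silent. The 923 pseudogenes described here are those that a probe set of the GeneChip Arabidopsis ATH1 array names alone, that lie on chromosomes 1 to 5, and whose type in the TAIR10.1 reference is pseudogene. They are 923 of 13350 genes named alone on the array and of 3917 nuclear pseudogenes in that reference, and each has 1 probe set. The annotation used names no gene for 8730 of 22746 probe sets and several for 503, so further pseudogenes may be on the array. The reference gives 1 of the 923, AT1G15300, a symbol, CYTOSLEEPER. That name is shared with relatives of DAYSLEEPER, which derives from a transposase. The others are known by locus, and no description of what they once encoded was at hand. The class may therefore take in genes of transposable elements as well as disabled copies of ordinary genes, and how many of the 923 are of either kind could not be told.

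Seedlings of 10 days were compared on 6 arrays. WT was the Col-0 ecotype (3 arrays), and p53 was 35S:P53 transgenic in the same ecotype (3 arrays), carrying human p53 behind the constitutive 35S promoter. The labels trace the replicates to separate biological experiments, but they do not say whether the p53 arrays come from 1 transgenic line or several, no seedlings with an empty vector were among the arrays, and no probe set analysed here names the transgene. The deposited values are logs, taken as base 2, from which each probe set's median over the 6 arrays had been removed. A value of 1 thus means 2-fold above the middle of the arrays, and how strongly a pseudogene was expressed cannot be read. Whether the tissue carried its defining markers could not be checked for the same reason, and the markers that could be followed, RCA and LHCB4.1 of photosynthesis and EXPA7 and EXPA18 of root hairs, had log2 fold changes from -0.02 to 0.12 and did not pass the test.

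The signal of the pseudogene probe sets was nearly flat between p53-transgenic and WT seedlings. Each probe set was tested with limma, and p-values were adjusted over all 22746 probe sets. At an adjusted p under 0.05, 4 of the 923 pseudogenes rose and 3 fell, which is 0.758%, where 15.4% of all probe sets were called (6.55% higher and 8.84% lower). A large shift, meaning an unadjusted p under 0.05 together with a change of over 2-fold, was seen for 3 pseudogenes (0.325%), 2 higher and 1 lower, against 5.88% of all probe sets (3.14% higher and 2.73% lower). At an unadjusted p under 0.05 alone the pseudogenes numbered 33 (3.58%), and all probe sets reached 29.2%. The 3 p53 arrays lay wholly on one side of the 3 WT arrays for 101 pseudogenes (10.9%), 48 higher and 53 lower, and for 34.3% of all probe sets. With 3 arrays against 3, a random order of the arrays gives such a separation with a probability of 0.1. The number of pseudogenes called without a single array was 3, 7 and 3 without WT replicates 1 to 3. It was 4, 10 and 10 without p53 replicates 1 to 3. Over all probe sets the same runs called 1747, 2358 and 1621 without WT replicates 1 to 3. They called 1710, 4346 and 3934 without p53 replicates 1 to 3, against 3500 with all 6 arrays. Protein-coding genes, with 12419 probe sets, had 15.1% called and 5.40% with a large shift.

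The sizes of the changes give the same picture. The median absolute log2 fold change was 0.06 for pseudogenes and 0.15 for protein-coding probe sets. The 90th and 99th percentiles of the change were 1.13-fold and 1.34-fold for pseudogenes, while those of protein-coding probe sets were 1.61-fold and 4.35-fold. Of the 923, 5 differed by more than 1.5-fold. For 896 (97.1%) the whole 95% confidence interval of the difference lay within 1.5-fold, compared with 66.0% of all probe sets. The signed median was -0.0038 for pseudogenes and -0.01 over all probe sets, with 444 pseudogenes above and 479 below 0. Arrays within a genotype also differed less for pseudogenes, with a median SD of 0.10 against 0.14 for protein-coding probe sets. How many of the 923 gave a signal above background cannot be told from centred values, and its part in these small differences was not tested.

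**Figure D1:**
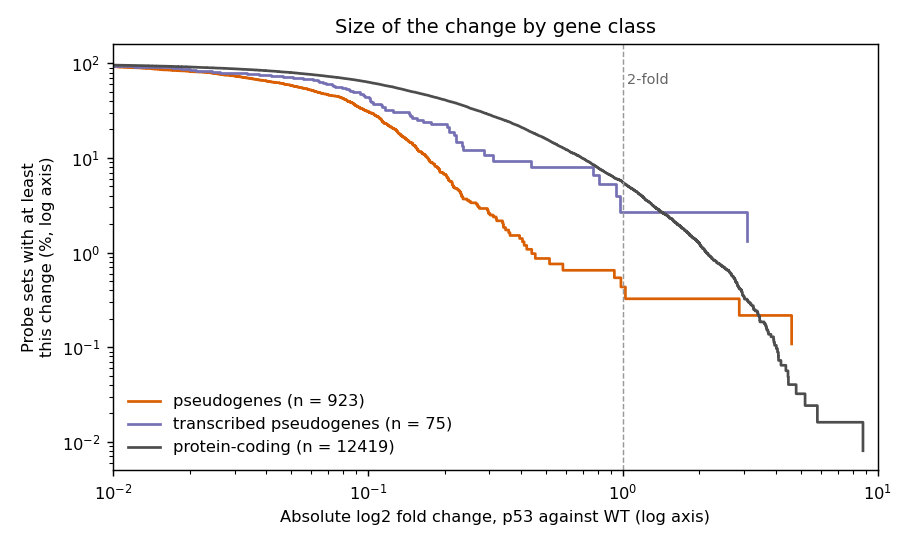
Share of probe sets (%, log axis) whose absolute log2 fold change between p53 and WT (log axis) is at least the value on the horizontal axis, for pseudogenes, transcribed pseudogenes and protein-coding genes, with n in the key. The pseudogene curve drops first, yet its tail of 3 of 923 probe sets past the dashed 2-fold line reaches a log2 fold change of 4.60.

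AT3G15310 was the pseudogene that moved most. Its centred log2 values were -1.90, -2.17 and -1.95 in WT replicates 1 to 3, and 3.18, 2.69 and 1.90 in p53 replicates 1 to 3. All p53 arrays were far above all WT arrays, and the WT arrays were close together while p53 replicate 3 was the lowest of its genotype. The means were -2.01 ± 0.14 (SD, n = 3) in WT and 2.59 ± 0.65 (SD, n = 3) in p53-transgenic seedlings. The difference was 4.60 on the log2 scale (standard error 0.30, 95% confidence interval 3.89 to 5.31, adjusted p = 0.000265 from limma), or 24.2-fold. It passed under all 12 alternatives, with adjusted p from 9.58e-06 to 0.0190 and a log2 fold change from 4.02 after quantile normalization to 4.94 without p53 replicate 3. This gene was named with its change already known, so its rank among the pseudogenes is a description.

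AT2G06890, on chromosome 2, was split within the p53 genotype. Its values were -0.31, -0.16 and -0.06 in WT and 3.83, 4.17 and 0.06 in p53. The highest array, p53 replicate 2, was 20.4-fold above the WT mean, and p53 replicate 1 was close to it, whereas p53 replicate 3 lay 0.12 above the highest WT array on the log2 scale. The mean was -0.18 ± 0.13 (SD, n = 3) in WT and 2.69 ± 2.28 (SD, n = 3) in p53-transgenic seedlings. The log2 fold change of 2.87 (standard error 1.01, 95% confidence interval 0.47 to 5.26) had an unadjusted p of 0.0255 and an adjusted p of 0.110 from limma, so it counts as a large shift and was not called. Without p53 replicate 3 it was 4.18 with an adjusted p of 3.63e-05, and over all 12 alternatives the adjusted p ran from that value to 0.436. AT2G06890 was no longer a large shift with the methods' t-test or with eBayes with trend and robust. The same held on leaving out any array but p53 replicate 3. Within the p53 genotype 2 of the 923 pseudogenes spanned more than 1 on the log2 scale, this one with 4.11 and AT3G15310 with 1.28, and within WT none did. Of 13513 probe sets naming 1 gene, 568 exceeded that span in p53 and 131 in WT.

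AT3G42820 was the single pseudogene with a large fall. It read 0.52, 0.26 and 0.63 in WT and -0.98, -0.42 and -0.26 in p53. The genotypes did not overlap, and p53 replicate 1 was the lowest array. The mean fell from 0.47 ± 0.19 (SD, n = 3) to -0.55 ± 0.38 (SD, n = 3), which is -1.02 on the log2 scale with a standard error of 0.20, or 2.03-fold (limma, adjusted p = 0.0173). The call was lost when WT replicate 1 or WT replicate 3 was left out, where the adjusted p reached 0.0783, and with the methods' t-test (0.102). Its lowest value over the alternatives was 0.00265.

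A pair of pseudogenes rose by just under 2-fold. AT2G23330, on chromosome 2, had values of -0.43, -0.39 and -0.37 in WT and 0.37, 0.69 and 0.70 in p53. The WT arrays were nearly identical and p53 replicate 1 was the lowest of its genotype. The rise was 0.98 on the log2 scale, with a standard error of 0.11 (limma, adjusted p = 0.00225), and it passed under all 12 alternatives (0.00125 to 0.0295). AT5G20880, on chromosome 5, had -0.24, -0.59 and -0.48 in WT and 0.72, 0.24 and 0.51 in p53. Its genotypes were set apart by 0.47, between WT replicate 1 and p53 replicate 2. The rise was 0.93 on the log2 scale, with a standard error of 0.15 (limma, adjusted p = 0.00912), and it passed under 11 of 12 alternatives, the exception being the methods' t-test (0.0694, range 0.000388 to 0.0694). These are the members just outside the 2-fold limit on the higher side, and on the lower side they are AT2G03540 with -0.52 and AT4G08220 with -0.41.

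The other called changes were small and rested on more of the arrays. AT1G20390 had values of -0.37, -0.22 and -0.14 in WT and 0.18, 0.28 and 0.14 in p53. It rose by 0.44 (standard error 0.09, adjusted p = 0.0237 from limma), with no overlap between genotypes, and the call was lost with the methods' t-test (0.0648) and on leaving out any 1 WT array or p53 replicate 1 (adjusted p between 0.00612 and 0.0879 over the alternatives). AT4G08220 had 0.23, 0.14 and 0.22 in WT and -0.26, -0.14 and -0.25 in p53, and fell by 0.41 (standard error 0.08, adjusted p = 0.0180 from limma). That call needed WT replicates 1 and 3 and p53 replicate 1, since leaving out any of them lost it (adjusted p between 0.00339 and 0.0800 over the alternatives). AT5G50315 had 0.29, 0.10 and 0.26 in WT and -0.17, -0.26 and -0.10 in p53. Its fall of 0.39 (standard error 0.09, adjusted p = 0.0313 from limma) was lost with the methods' t-test (0.0698) and on leaving out any of WT replicates 1 and 3 and p53 replicates 1 and 2 (adjusted p between 0.0102 and 0.120 over the alternatives). In both genes that fell, WT replicate 2 was the lowest WT array and still above every p53 array. AT2G03540 overlapped between genotypes, with WT replicate 2 at -0.02 and p53 replicate 3 at 0.02, and had an adjusted p of 0.119 from limma, or 0.0370 without WT replicate 2 (range 0.0370 to 0.317).

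**Figure D2:**
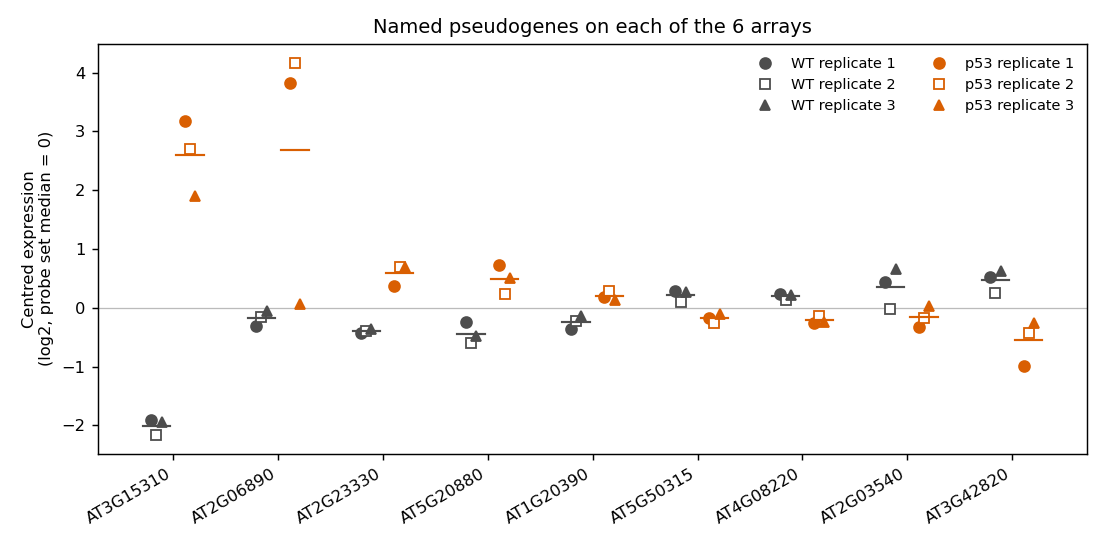
Centred log2 expression of 9 pseudogenes on each array, with WT in grey, p53 in orange, a marker shape for each replicate number and a line at the mean of each genotype (n = 3). AT3G15310 separates the genotypes by 3.80 between the nearest arrays, AT2G06890 is high in p53 replicates 1 and 2 and near WT in p53 replicate 3, and the other genes stay within 1 of the middle.

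The symbol CYTOSLEEPER is the one gene name among the members, and this gene was singled out for that. It had values of -0.10, -0.05 and 0.04 in WT and -0.04, 0.11 and 0.26 in p53. The genotypes overlapped, and the difference of 0.15 on the log2 scale, with 95% confidence limits of -0.10 and 0.39, was not called (limma, adjusted p = 0.421).

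A probe set can also bind related transcripts, which matters for sequences that exist in many copies. Of the 923 probe sets, 734 carry the plain suffix _at, 111 the suffix _s_at for oligonucleotides shared by several transcripts, and 78 the suffix _x_at for oligonucleotides that may bind unrelated ones. Together these 2 latter kinds make up 20.5% of the pseudogenes and 0.701% of the protein-coding probe sets. All 7 called pseudogenes and all 3 with a large shift carry the suffix _at. None of the 111 or of the 78 was called by limma. At an unadjusted p under 0.05 there were 5 (4.5%) and 3 (3.85%), beside 3.41% of the 734. The median absolute log2 fold change was 0.06 for _at, 0.06 for _s_at and 0.08 for _x_at. With 7 called pseudogenes these counts do not set the kinds apart, and the difference was not tested.

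The flatness was shared by all arrays, with p53 replicates 2 and 3 leaning slightly in opposite directions. The array medians over the 923 pseudogenes ran from -0.03 (p53 replicate 2) to 0.04 (p53 replicate 3), with WT between -0.01 and 0.01. Of the 923, 293 (31.7%) were highest in p53 replicate 3 and 261 (28.3%) were lowest in p53 replicate 2. The protein-coding probe sets had 25.8% and 20.2% at the same places. Between 2 and 7 pseudogenes an array lay more than 0.5 from the middle, the most in p53 replicate 3. Over all probe sets the array medians were from -0.02 to 0.01. The part of array scaling in these leanings was not tested beyond the alternatives of quantile normalization and centring, under which 9 and 8 pseudogenes were called.

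Along the chromosomes the measured pseudogenes were unevenly placed. The reference was used for gene order only, and each chromosome was divided into 10 segments with equal numbers of annotated genes. In 14 of 50 segments, each holding at least 10% of the pseudogenes of its chromosome, lay 771 of the 923. On chromosome 1, 135 of 177 were in segments 5 and 6, on chromosome 3, 159 of 195 were in segments 6 and 7, and on chromosome 5, 91 of 105 were in segments 4 to 6. The dense segments of chromosomes 2 and 4 start at one end, with 252 of 277 in segments 1 to 4 and 134 of 169 in segments 1 to 3. The grouping into dense and other segments was made after the positions were seen.

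The pseudogenes that changed did not gather in 1 place. By chromosome, 1 of 177, 1 of 277, 2 of 195, 1 of 169 and 2 of 105 were called on chromosomes 1 to 5, and the 3 large shifts were on chromosomes 2 and 3. In the dense segments 2 of 771 pseudogenes (0.259%) were called, AT3G42820 and AT4G08220, both lower in p53. AT2G06890, with its large shift, also lies there. In the other segments 5 of 152 (3.29%) were called, 4 of them higher, namely AT3G15310, AT2G23330, AT5G20880 and AT1G20390, and AT5G50315 was lower. Protein-coding probe sets were called in 12.1% of 2179 in the dense segments and 15.8% of 10240 elsewhere. The median absolute log2 fold change of pseudogenes was 0.06 in the dense segments and 0.07 in the others. With so few called pseudogenes these shares are counts, and their difference was not tested.

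**Figure D3:**
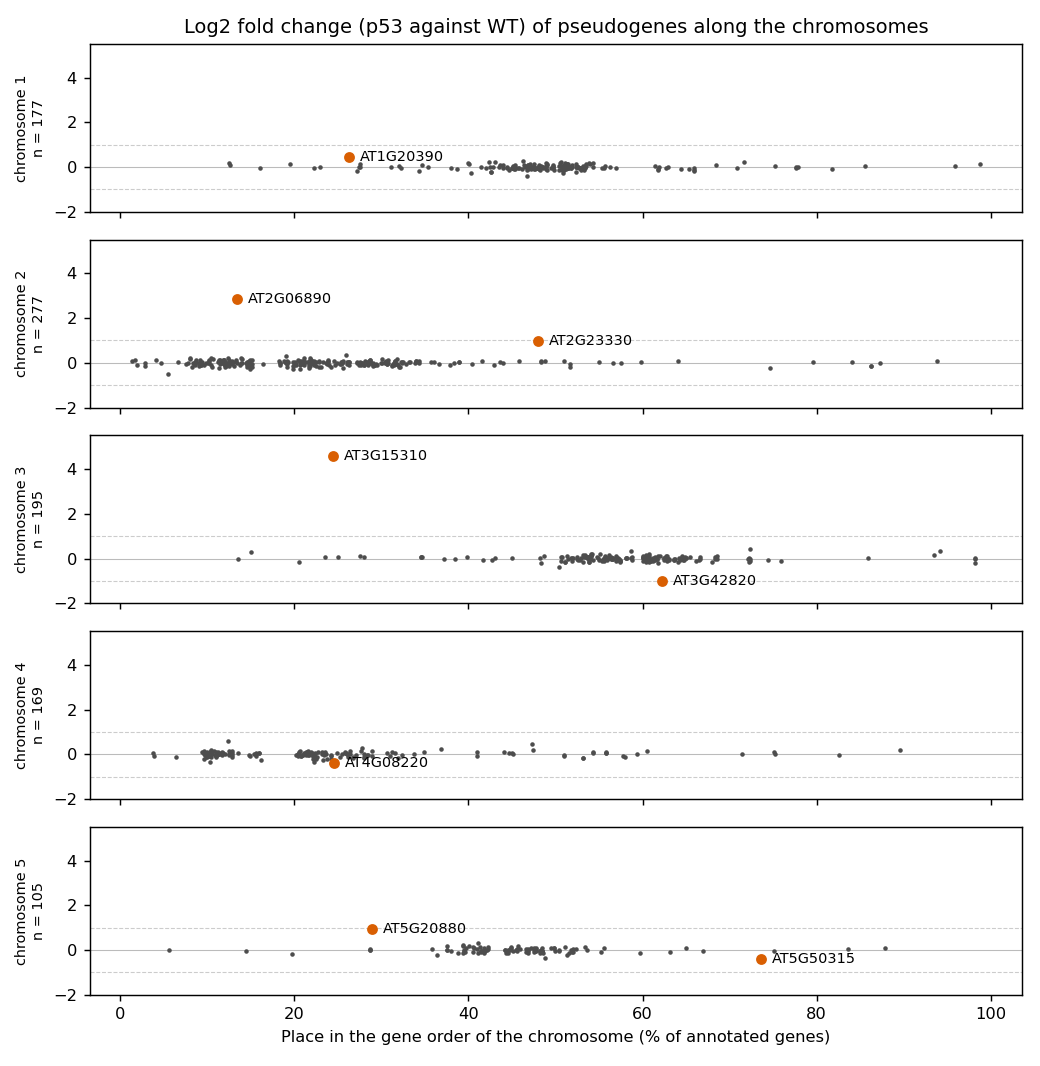
Log2 fold change (p53 against WT) of each of the 923 pseudogenes against its place in the gene order of chromosomes 1 to 5 (% of annotated genes), with dashed lines at 2-fold. The 8 labelled orange points are those called or with a large shift, and they stand singly among pseudogenes that lie near 0.

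Genes around the changed pseudogenes were called about as often as probe sets in general. Only genes that a probe set names alone could be looked up. Up to 3 annotated genes away, 6 of the 8 pseudogenes called or with a large shift had such genes. There were 19 in all, and none overlapped the pseudogene in the reference. Of the 19, 1 was higher and 3 were lower, which is 21.1%, beside 15.4% of all probe sets. Up to 8 genes away, 2 of 39 were higher and 5 lower (17.9%). These counts are too small to set the surroundings of the pseudogenes apart from other genes. AT3G15290, 2 genes before AT3G15310, differed by 0.02 on the log2 scale (limma, adjusted p = 0.955), and AT3G42830, next to AT3G42820, by -0.09 (adjusted p = 0.737). Of the 4 called genes, AT5G20885 directly follows AT5G20880. It fell by 0.83 (standard error 0.14, adjusted p = 0.0104 from limma, between 0.00286 and 0.0710 over the alternatives) while the pseudogene rose by 0.93. The methods' t-test did not call it, nor did limma on leaving out WT replicate 3 (adjusted p = 0.0527). The other called genes were picked out after their values were seen. AT5G50335, 3 genes from AT5G50315, fell as that pseudogene did, by 1.78 (standard error 0.21, limma, adjusted p = 0.00277), and was called in all 12 alternatives. AT4G08240, 2 genes from AT4G08220, rose by 0.38 (adjusted p = 0.0360) and AT1G20410, 3 genes from AT1G20390, fell by 0.41 (adjusted p = 0.0286), each against the direction of its pseudogene. AT4G08240 was called in 7 of 12 alternatives, with adjusted p up to 0.134, and lost its call with the methods' t-test and on leaving out any of WT replicates 1 and 3 and p53 replicates 1 and 2. AT1G20410 was called in 6, with adjusted p up to 0.104, and lost its call with the methods' t-test and on leaving out any array but p53 replicate 3. No gene named alone by a probe set lay within 3 genes of AT2G06890. The nearest such gene, the pseudogene AT2G06870 at 4 genes, had a log2 fold change of 0.01.

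The nearest other pseudogenes differed little, as did nearly all of the 923. The measured pseudogenes on each side of AT3G15310, AT3G14800 and AT3G15600, are 64 and 51 genes away and had log2 fold changes of 0.07 and 0.09. For AT2G06890 they were 0.01 for AT2G06870 and -0.10 for AT2G06950, and for AT3G42820 they were 0.11 for AT3G42730 and 0.02 for AT3G42900. In AT2G06870, 4 genes away, the p53 arrays read -0.05, -0.01 and 0.01, without the split seen in AT2G06890. Whether the probe set of AT2G06870 gave a signal above background cannot be told from centred values.

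**Figure D4:**
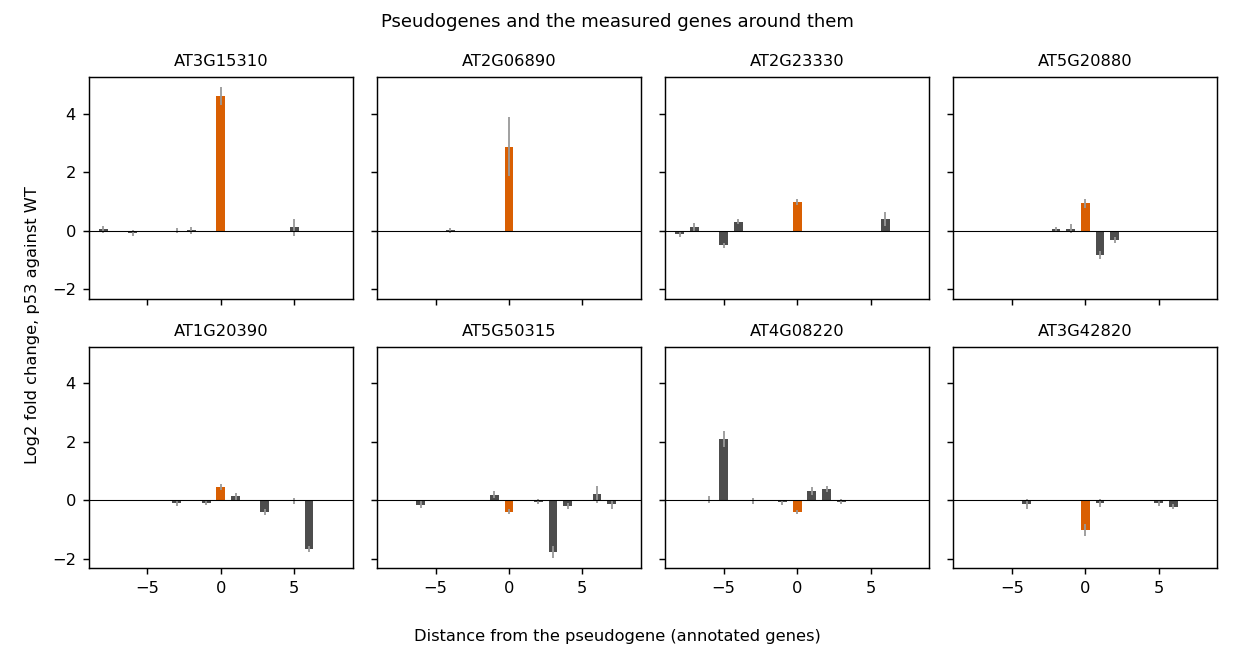
Log2 fold change (p53 against WT, bars, with standard errors) of the 8 pseudogenes called or with a large shift (orange) and of the genes named alone on the array up to 8 annotated genes to either side (grey). The bars around AT3G15310, AT2G06890 and AT3G42820 are close to 0, and AT5G20880 and its next neighbour point in opposite directions.

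A second class of the reference, transcribed pseudogenes, had 75 probe sets. Of these, 3 (4%) were called, all higher in p53, between the share of the pseudogenes and that of all probe sets. AT5G55420 read -1.26, -1.52 and -1.09 in WT and 1.96, 1.09 and 2.33 in p53. It rose by 3.08 (standard error 0.31, adjusted p = 0.00141 from limma), the one large shift of the class, and passed under all 12 alternatives. AT5G28230 and AT4G14610 rose by 0.81 and 0.76 (adjusted p = 0.00684 and 0.0329 from limma). The methods' t-test did not call AT5G28230 (0.0525, the highest of its alternatives). AT4G14610 passed under 6 of 12 alternatives and lost its call with that test (0.135), with the replicate block (0.0666) and on leaving out any of WT replicates 1 and 3 and p53 replicates 1 and 3. The difference between the classes was not tested.

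Little of the machinery that silences or removes such transcripts could be followed. Genes not read here may still be on the array, since the annotation used names no gene for 8730 probe sets. Of 29 listed genes of DNA methylation and small RNA silencing, 1 has a probe set that names it alone. This is DME, a DNA glycosylase that removes methylated cytosine and so opposes silencing. Its 3 probe sets gave log2 fold changes of 0.45 (standard error 0.10, adjusted p = 0.0247 from limma), 0.29 (0.125) and 0.11 (0.507), so 1 of the 3 passed. In that probe set WT read -0.12, -0.38 and -0.36 and p53 read 0.17, 0.21 and 0.12, without overlap. The call was lost in 4 of 12 alternatives, the methods' t-test (0.0715) and leaving out WT replicate 2 (0.0831), WT replicate 3 (0.102) or p53 replicate 1 (0.0922). Of 11 listed genes of RNA decay and RNA silencing, 2 could be read, both of the nonsense-mediated decay that destroys transcripts with early stop codons. UPF2 differed by 0.28 on the log2 scale, with 95% confidence limits of -0.01 and 0.57 (limma, adjusted p = 0.191), and UPF3 by -0.01, with limits of -0.22 and 0.19 (adjusted p = 0.952). Neither passed.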

How the data were processed

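The log2 values deposited by the authors were used as they stand. Per the labels, probe sets were summarized with PLIER, and the methods name GeneSpring for statistics, while the sources used here do not give the background correction, scaling or log base, so base 2 is an assumption. After 64 controls were removed, 22746 probe sets were fitted with limma 3.58.1 in R 4.3.3 (p53 minus WT, no covariate) and adjusted by Benjamini-Hochberg over all of them, without a filter on low values. The number of arrays limits precision.

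In the probe annotation, 503 probe sets name several genes and 8730 name none, and these were not assigned to a gene. Of 13513 probe sets naming 1 gene, 13436 were matched to TAIR10.1 by gene ID, 72 by symbol or locus and 5 not at all. The 72 added no pseudogene. Named were AT3G15310, members with a large shift, the most changed called members, those nearest the 2-fold limit, nearest neighbours, and members of fixed silencing and decay lists. Of fixed marker lists, 2 of 20 photosynthesis, 2 of 15 root, 0 of 5 flower and 0 of 6 seed genes could be read. Members and lists were chosen with earlier results of these data known. The reference gives no descriptions, so kinds of pseudogene were not compared, and promoter motifs were not analysed here.

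Same-numbered WT and p53 arrays deviated together over all probe sets, with r of 0.12, 0.27 and 0.34 against a limit of 0.1. On the data alone, the replicate number was therefore used as a block in an alternative, while the main fit was unpaired. For the pseudogenes r was 0.006, 0.099 and 0.094, each under the limit. The methods' t-test is the plain test the study names, run on the same values. Its calls here used p-values adjusted by Benjamini-Hochberg over all probe sets. The study gives a p under 0.05 with a change of over 2-fold and names no adjustment, which is the rule for a large shift here. The steps were also run on simulated data with independent noise. Those data lacked the shared deviations of same-numbered arrays, so the steps were not checked under them.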

Additional observations from a re-analysis of the deposited data

How the results depend on the processing

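The signs of the 9 named pseudogenes were the same in all 12 alternatives. With the replicate number as a block, 8 pseudogenes were called and all 7 were among them, and no call of a named pseudogene changed. The 7 were also kept with quantile normalization (9 called), each array centred (8) and eBayes with trend and robust (10), and the methods' t-test called 5, of which 3 were shared. Leaving out each array in turn gave 3 to 10 called pseudogenes and 1 to 3 large shifts, the single one being without WT replicate 3. The methods' t-test and eBayes with trend and robust each gave 2 large shifts. A limit of 1.5-fold gave 5 large shifts. Over all probe sets, 3500 were called, 1621 to 4346 without 1 array, 1411 with the methods' t-test and 1797 when adjusted over probe sets naming 1 gene, which are fewer. With transcribed pseudogenes added, chosen after seeing the data, 10 were called and 4 had a large shift. A filter on dim probe sets could not be run on centred values.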

Other observations

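The pattern of AT2G06890 was looked for across the array after its values had been seen. A probe set was counted where 2 p53 arrays lay more than 1 above the highest WT array on the log2 scale and the other lay within 0.5 of it. With p53 replicate 3 as the array near WT, 7 probe sets naming 1 gene were of this kind, and AT2G06890 had the widest gap of them (3.89), followed by STOMAGEN, a peptide that promotes stomata, with 1.40. With p53 replicate 2 near WT there were 57 and with p53 replicate 1 near WT there was 1, and none of these was a pseudogene of the 923.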
